A study of Mus musculus with 6 samples.

Results

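The transcription factors that set up B cell identity, and the factor that ends it when a B cell becomes a plasma cell, were followed across 6 arrays of A20 cells. The 10 genes were chosen by symbol: Pax5, Ebf1, Spib, Spi1 (also listed as Sfpi1, and encoding PU.1), Pou2af1, Ikzf1, Ikzf3, Bcl6, Prdm1 and Bach2. All 10 were found, with 21 probe sets, among 18194 genes with a named probe set. A20 is a B lymphoma line from a BALB/c mouse, so the cells are tumour cells of 1 line. The study had 6 conditions with 1 array each: TGF-β with SP600125 for 12 h or 24 h, TGF-β alone for 12 h or 24 h, SP600125 alone for 24 h, and untreated cells. SP600125 is an inhibitor of the JNK kinases, and the cells without it had received DMSO, its solvent. The sources used here do not give the concentrations of TGF-β and SP600125. No condition was repeated, and the labels do not say whether the arrays came from separate cultures.

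In the B lineage, Ebf1 and Pax5 start and then maintain the B cell programme, together with the related ETS factors PU.1 and Spi-B and with the zinc finger proteins Ikaros and Aiolos. Bcl6 and Bach2 are repressors that hold an activated B cell in the germinal centre and B cell state, and among their known targets is Prdm1. Prdm1 encodes Blimp-1, which drives plasma cell differentiation and shuts down Pax5 and Bcl6.

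A promoter sequence from RefSeq (GRCm38.p6) was held for 8 of the 10 genes, with 11 start sites in all, and none was used for Spi1 and Ikzf3. Each runs from 250 bases before a transcript start to 50 bases after it. The 3 shown are those of Bach2 and Spib, which passed the test in more than 1 comparison, and of Prdm1, whose window was the only one of the 11 with the letters TGANTCA, a loose form of the AP-1 and Bach core. They lie at chr4:32417185-32417484 on the plus strand for Bach2, at chr7:44532022-44532321 on the minus strand for Spib and at chr10:44458699-44458998 on the minus strand for Prdm1. Capitals mark TGANTCA and the Smad-binding element CAGAC on either strand, and where a site of each overlaps, as in Prdm1, they form 1 run.
Bach2: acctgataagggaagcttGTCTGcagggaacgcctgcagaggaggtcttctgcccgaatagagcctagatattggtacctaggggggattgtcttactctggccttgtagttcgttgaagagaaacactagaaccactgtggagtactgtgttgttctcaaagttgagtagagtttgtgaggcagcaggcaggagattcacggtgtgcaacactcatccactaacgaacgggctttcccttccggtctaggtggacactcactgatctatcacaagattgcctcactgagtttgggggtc
Spib: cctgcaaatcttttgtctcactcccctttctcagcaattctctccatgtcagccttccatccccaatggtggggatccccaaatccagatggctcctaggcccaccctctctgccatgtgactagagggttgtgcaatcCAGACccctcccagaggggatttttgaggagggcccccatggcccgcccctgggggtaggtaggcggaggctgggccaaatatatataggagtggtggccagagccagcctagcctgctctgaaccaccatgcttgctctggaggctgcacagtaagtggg
Prdm1: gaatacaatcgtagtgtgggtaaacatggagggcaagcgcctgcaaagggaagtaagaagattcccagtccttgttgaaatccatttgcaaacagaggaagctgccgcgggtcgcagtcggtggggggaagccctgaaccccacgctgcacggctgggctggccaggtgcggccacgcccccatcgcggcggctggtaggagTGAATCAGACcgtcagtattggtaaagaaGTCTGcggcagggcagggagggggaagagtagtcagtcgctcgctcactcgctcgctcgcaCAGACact

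AP-1, which JNK activates, and Bach2 with a small Maf partner bind a core with C or G in the middle (TGACTCA, or TGAGTCA on the other strand). This consensus was in 0 of the 11 windows and in 5.2% of all 32851 promoter windows of this length. The match in Prdm1, whose first base lay at −48 from the transcript start, has another middle base (TGAATCA), and 7.81% of all windows held TGANTCA on either strand. CAGAC was present in 7 of the 11 windows and in 49.6% of all windows. In Bach2 the only CAGAC match began at −232 and in Spib at −111. Both strands were also searched for GAGGAA, the core of PU.1 and Spi-B sites, which was found in 4 of the 11 windows and in 28.3% of all. The Ebf1 core CCCNNGGG was in 2 of the 11 and in 13.7% of all, and the Ikaros core GGGAA in 9 of the 11 and in 62.7% of all. The octamer ATGCAAAT was in 0 of the 11 and in 1.74% of all. These matches describe the letters of short windows only.

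Values are linear signals, 1 per probe set and array, as deposited, with a trimmed mean of 500.0 on every array. A floor of 74.2, the 50th percentile over the arrays, replaced every lower signal ahead of the log2 step, which understates the change of dim genes. Of several probe sets of a gene the brightest one stood for it, and levels are not compared between genes. All 10 genes passed the filter of at least 2 arrays above the floor, and 9 of them were above it on all 6 arrays. Of the 21 probe sets 16 were above the floor on all arrays, 2 on some and 3 on none. "Rose" and "fell" are used of an additive limma model over the 6 arrays (a term for TGF-β state, another for the drug), where the Benjamini-Hochberg adjusted p over 11731 genes was under 0.05. Its p-values set each effect against an error taken only from how far these arrays depart from additivity, moderated over all genes. They do not measure a spread between repeats. Errors after ± are its standard errors, and the number of arrays limits the precision.

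All 6 of the B cell markers found, Cd79a, Cd79b, Ms4a1, Cd22, Cd72 and Blnk, were above the floor on every array. So were 4 of 5 plasma cell markers (all but Tnfrsf17, which was below it on every array), 2 of 8 myeloid markers (Csf1r at 277.1 to 405.5 and Adgre1 at 171.7 to 496.6) and 1 of 4 erythroid and platelet markers, Itga2b. Of 7 T and NK cell markers 0 were above the floor on every array and 4 on none, with Cd3d at 4 to 13.4, and of 5 fibroblast markers 0 and 2. Sums over a list's probe sets, which serve only to compare arrays within that list, ranged from 30123.1 to 46846.3 for B cells, 37759 to 49641.9 for plasma cells and 215.5 to 522.5 for T and NK cells. The plasma cell sum was mostly Jchain (16906.9 to 27535.1) and Mzb1 (19420.9 to 23593), with Sdc1 at 195.8 to 340.8 and Derl3 at 192.3 to 520.4. Myeloid markers summed to 761.2 to 1163.4, erythroid and platelet markers to 255.3 to 408.2 and fibroblast markers to 139.6 to 423.8. The 24 h array with both TGF-β and SP600125 stood apart, with an 18S ribosomal RNA signal (3′ probe set) of 5878.2 against 506.5 to 881.5 on the others, and an actin 3′ to 5′ ratio of 1.89 against 1.25 to 1.51. Cells given SP600125 alone had it for 24 h, so that drug time and TGF-β time both differ in the 12 h pair with drug.

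Bach2 had the largest effects among those that passed. It rose with 24 h of TGF-β and rose with SP600125. In its brightest probe set the signal was highest, at 2926.7, on the 24 h array with both agents. That array is the one that stood apart in its ribosomal RNA signal and actin ratio. The 12 h array with both agents, at 1902.6, was below 24 h of TGF-β alone, at 2095.7. Spib fell at 12 h of TGF-β and fell with SP600125. Ebf1 fell with SP600125, and Ikzf1 fell at 24 h of TGF-β by a smaller amount. Pax5, Spi1, Pou2af1, Ikzf3, Bcl6 and Prdm1 passed the test in no comparison. In RNA of a whole culture, fewer cells with a transcript and less of it per cell cannot be told apart.

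**Figure D1:**
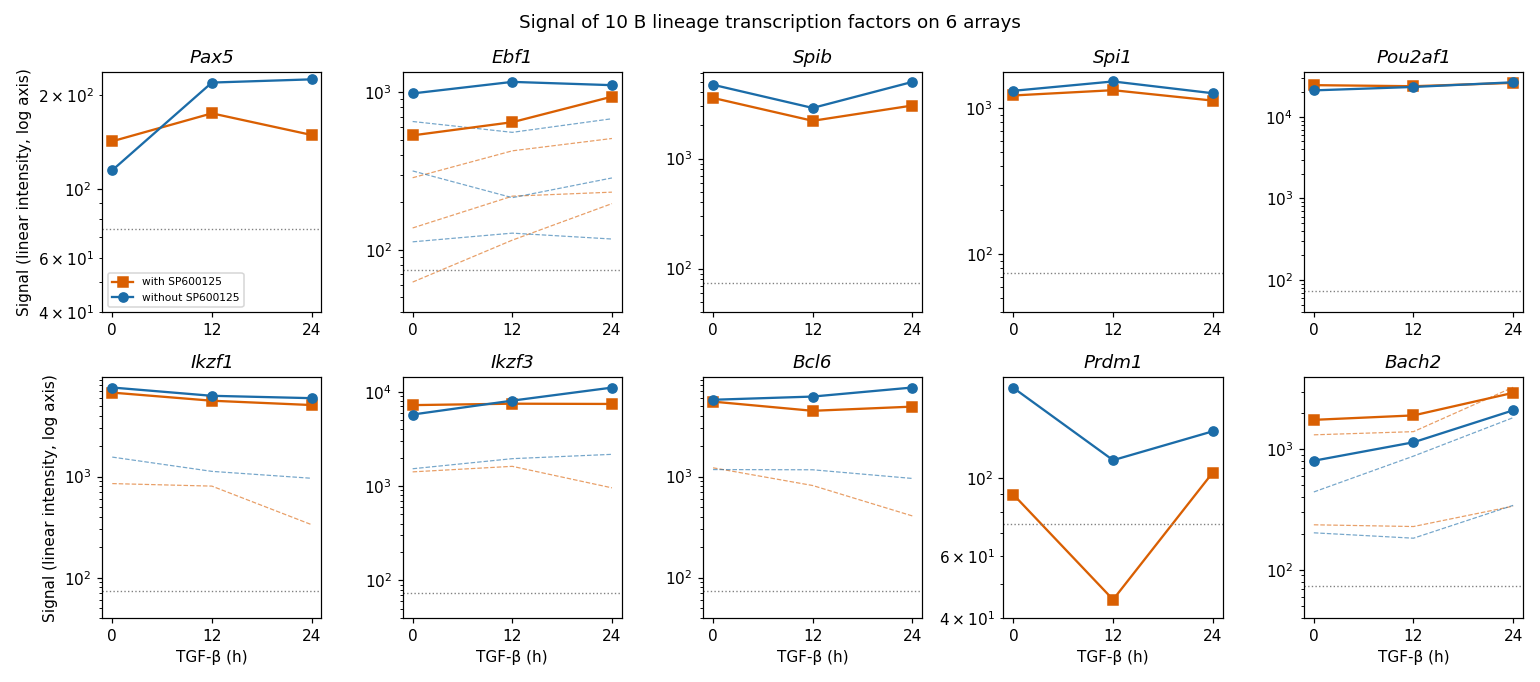
Signal (linear intensity on a log axis) of each factor after 0, 12 and 24 h of TGF-β, with SP600125 (squares) and without it (circles), 1 array per point. Solid lines are the brightest probe set, dashed lines the other probe sets above the floor on at least 1 array, and the dotted line is the floor of 74.2. The solid Bach2 line with drug lies above the solid line without drug at all 3 times, and the Spib line with drug lies below.

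At 12 h of TGF-β, 0 of the 10 factors rose and 1 fell, against 2.6% of all genes risen and 2.37% fallen. At 24 h, 1 rose and 1 fell, against 9.07% and 7.5% of all genes. For SP600125, 1 rose and 2 fell, against 3.99% and 3.69%. At an unadjusted p under 0.05 in limma the 12 h effect was positive in 0 factors and negative in 2, against 11.9% and 9.86% of all genes. The counts at that threshold were 3 and 1 at 24 h, against 18.1% and 13.2%, and 1 and 5 for SP600125, against 13.5% and 10.6%. The median effect over the 10 factors was 0.11 at 12 h, 0.17 at 24 h and −0.19 for SP600125 on the log2 scale, where all genes tested had medians of 0.02, 0.07 and 0.04. With each array scaled to the same median, the split of all calls was 228 risen and 439 fallen at 12 h in place of 305 and 278, 679 and 1329 at 24 h in place of 1064 and 880, and 349 and 681 for SP600125 in place of 468 and 433. That scaling put the median of all genes at 24 h at −0.04. The counts of factors risen and fallen were the same under it. Without the filter on low signals, and without the intensity trend, every one of these calls of a factor was lost, and averaging all probe sets of a gene left only that of Bach2 at 24 h. Without the 24 h array with both agents the effects of Bach2 and Ikzf1 at 24 h were 1.29 and −0.35 (limma adjusted p = 0.135 and 0.178), that of Spib at 12 h was −0.69, and those of Bach2, Ebf1 and Spib for SP600125 were 0.93, −0.87 and −0.39.

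**Figure D2:**
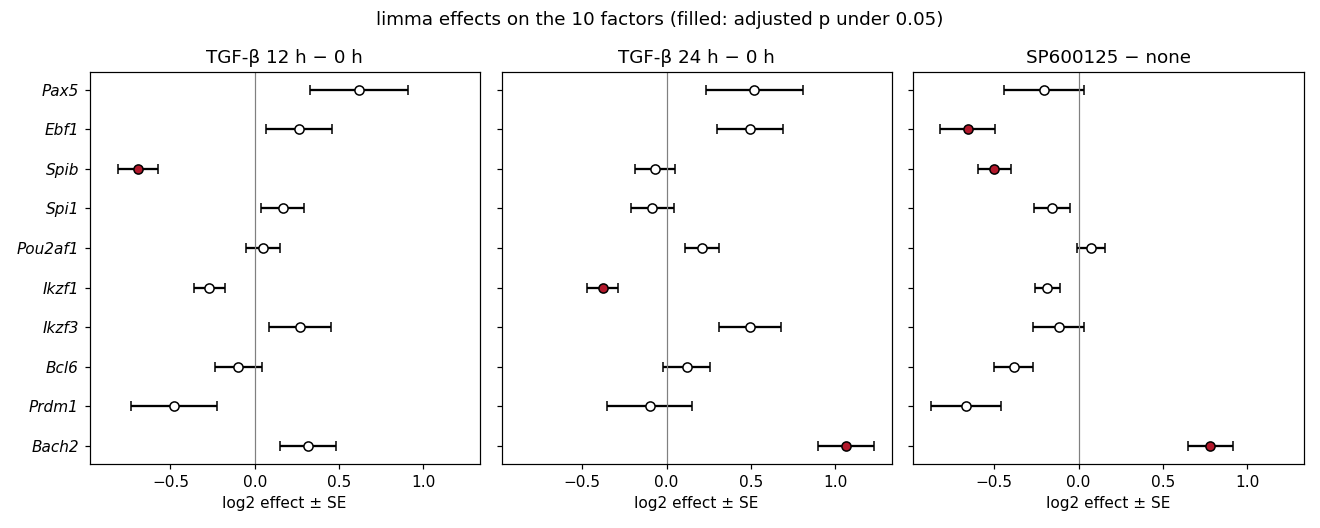
Effects from the additive limma model on the log2 scale with standard errors, for TGF-β at 12 h against 0 h, TGF-β at 24 h against 0 h, and SP600125 against none. Filled points passed an adjusted p of 0.05: Spib at 12 h, Ikzf1 and Bach2 at 24 h, and Ebf1, Spib and Bach2 for SP600125.

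Bach2 encodes a repressor that pairs with small Maf proteins and keeps Prdm1 low in B cells. In its brightest probe set, 1437667_a_at, the signal with SP600125 was 1748.3, 1902.6 and 2926.7 after 0, 12 and 24 h of TGF-β, against 801.6, 1139.7 and 2095.7 without the drug. Each of the 3 signals with drug was above the signal without drug at the same time, and both 24 h signals were above every 0 h and 12 h signal. Bach2 rose by a log2 of 1.06 ± 0.16 at 24 h of TGF-β, a 2.09-fold effect seen in 2 of 2 pairs, and limma gave it an adjusted p of 0.00617. With SP600125 it rose by 0.78 ± 0.13 (adjusted p = 0.0145 in limma), higher in 3 of 3 pairs. At 12 h of TGF-β the effect was 0.31 ± 0.16 and did not pass. When each array was left out in turn, the 24 h effect lay between 0.81 and 1.32 and kept its call only without the drug-alone array, and the SP600125 effect lay between 0.61 and 0.93 with no call kept.

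A second Bach2 probe set, 1436515_at, had larger effects in the same directions. Its signal with drug was 1313.8, 1395.8 and 3254.3 after 0, 12 and 24 h of TGF-β, against 441.8, 875.3 and 1822.2 without. When every probe set was fitted as its own row, it rose by 1.68 ± 0.21 at 24 h (adjusted p = 0.00327 in limma) and by 1.03 ± 0.17 with SP600125 (adjusted p = 0.0142). The third and dimmest, 1445460_at, read 236.2, 228.5 and 337.0 with drug against 202.7, 182.9 and 342.2 without. It had a 24 h effect of 0.63 ± 0.26 and an SP600125 effect of 0.17 ± 0.21, neither of which passed.

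Bach2 was the only factor at least 2-fold higher at 24 h of TGF-β without drug, the rule the study used for induced genes. The fold was 2.61 in the brightest probe set and 4.12 in 1436515_at. In the drug arm the folds at 24 h were 1.67 and 2.48. The increase in signal at 24 h was 8.94% smaller with drug in the brightest probe set, 1178.4 against 1294.1, and it was larger with drug in 1436515_at, 1940.5 against 1380.4, so neither met the study's mark of an increase over 75% smaller. At 12 h the folds in these probe sets were 1.42 and 1.98 without drug, both under 2-fold. With drug they were 1.09 and 1.06, in a pair that also differed in drug time. The lower folds with drug stood on a drug-alone array where Bach2 was already 2.18-fold and 2.97-fold higher than in untreated cells.

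Prdm1 encodes Blimp-1. Its 1 probe set was dim, at 89.8, 45.1 and 103.8 with SP600125 after 0, 12 and 24 h of TGF-β, against 180.9, 112.6 and 136.1 without. The untreated array was the highest and the 12 h array with both agents, below the floor, the lowest. Each signal with drug was below the signal without drug at the same time. With that lowest signal set to the floor, the SP600125 effect was −0.67 ± 0.21 (limma adjusted p = 0.0942), lower in 3 of 3 pairs, and at 0 h the signal with drug was 2.01-fold lower. The TGF-β effects of −0.48 ± 0.25 at 12 h and −0.10 ± 0.25 at 24 h did not pass. Over the 6 arrays the log2 signals of Prdm1 and Bach2 had a Pearson r of −0.58, which describes these arrays only.

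Ebf1 encodes a factor that opens and activates B lineage genes and switches on Pax5. In its brightest probe set, 1416301_a_at, the signal with SP600125 was 531.7, 644.7 and 936.2 after 0, 12 and 24 h of TGF-β, against 981.5, 1162.1 and 1107.5 without. The 3 signals with drug were all below the 3 without. With SP600125 Ebf1 fell by 0.66 (log2, standard error 0.16), in 3 of 3 pairs, and limma gave an adjusted p of 0.0473. The call was close to the threshold: with every probe set fitted as its own row the adjusted p was 0.0513, and averaging the gene's probe sets gave −0.36 with an adjusted p of 0.315. With 1 array left out at a time the effect stayed between −0.87 and −0.55 with no call kept.

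In the brightest Ebf1 probe set the log2 differences with drug were −0.88, −0.85 and −0.24 at 0, 12 and 24 h of TGF-β. That order was not shared by the other probe sets. The probe sets 1416302_at and 1439789_at gave 286.3 and 137.4 on the drug-alone array against 651.2 and 316.2 in untreated cells. Their log2 differences with drug were −1.19 and −1.20 at 0 h, −0.39 and 0.03 at 12 h, and −0.42 and −0.30 at 24 h. The dimmest measured probe set, 1448293_at, was higher with drug at 24 h, 196.1 against 116.9. With each probe set as its own row, 1416302_at, 1439789_at and 1448293_at had SP600125 effects of −0.66 ± 0.20, −0.49 ± 0.28 and 7e-04 ± 0.27, and none passed. In the drug arm the brightest, 1416302_at and 1439789_at were higher at 24 h of TGF-β by 0.82, 0.83 and 0.76, and 1448293_at, which was below the floor on the drug-alone array, by at least 1.40. Without drug the 4 differences were −0.15 to 0.17. In the model with a TGF-β by SP600125 term the interaction of the brightest probe set was 0.34 ± 0.40 with an adjusted p of 0.999, and with each probe set as its own row those of the others were 0.78 ± 0.39, 1.07 ± 0.45 and 0.90 ± 0.54 (adjusted p = 0.999 each in limma). That test took 12 h and 24 h as repeats and had 2 residual degrees of freedom. It called 0% of all genes, so it cannot decide whether the arms differed.

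Pax5, which keeps B cells committed, had a bright enough signal in only 1 of its 2 probe sets, 1454401_at. It read 142.2, 174.9 and 149.0 with drug and 114.7, 219.7 and 225.0 without, after 0, 12 and 24 h of TGF-β. The untreated array was the lowest of the 6. Without drug Pax5 was 1.92-fold higher at 12 h and 1.96-fold higher at 24 h, and with drug 1.23-fold and 1.05-fold. The additive effects of 0.62 ± 0.29 and 0.52 ± 0.29 did not pass (adjusted p = 0.263 and 0.268 in limma), and the interaction of −0.77 ± 0.37 had an adjusted p of 0.999. The other probe set was below the floor on all 6 arrays.

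Spib encodes Spi-B, an ETS factor of B cells that shares binding sites with PU.1. Its signal with SP600125 was 3552.3, 2201.4 and 3030.6 after 0, 12 and 24 h of TGF-β, against 4677.7, 2880.8 and 4965.9 without. In both arms the 12 h signal was the lowest, and the 24 h signal without drug was slightly above that of untreated cells. By 12 h Spib fell by 0.69 (log2, standard error 0.12, limma adjusted p = 0.0199), and it was lower in 2 of 2 pairs. The log2 differences were −0.69 with drug and −0.70 without, but the pair with drug also differed in drug time, 12 h against 24 h. With SP600125 it fell by 0.50 (standard error 0.10, limma adjusted p = 0.0211), in 3 of 3 pairs. At 24 h of TGF-β the effect was −0.07 ± 0.12. With 1 array left out the 12 h effect stayed between −0.78 and −0.61 and the drug effect between −0.55 and −0.39, with no call kept in any of these fits.

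The direct comparison of 24 h with 12 h gave 0.62 ± 0.12 for Spib with an adjusted p of 0.0808 in limma and 0.75 ± 0.16 for Bach2 with an adjusted p of 0.102. By that test 0 of the 10 factors rose and 0 fell, against 0.017% and 0% of all genes, and at an unadjusted p under 0.05 the effect was positive in 2 factors and negative in 0, against 8.34% and 6.98% of all genes.

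Spi1 encodes PU.1, whose level helps to separate myeloid from B cell fates. Its 1 probe set had 1222.2, 1328.2 and 1127.3 with drug and 1315.4, 1524.2 and 1265.9 without. Every signal with drug was below the one without at the same time. The effects were 0.17 ± 0.13 at 12 h, −0.09 ± 0.13 at 24 h and −0.16 ± 0.10 for SP600125, and none passed. Pou2af1, which encodes the coactivator OCA-B that works with octamer factors, read 24542.2, 23804.4 and 26156.6 with drug and 21168.4, 23320.8 and 26608.8 without. The untreated array was the lowest. Its effects were 0.05 ± 0.10, 0.21 ± 0.10 and 0.07 ± 0.08, and none passed. Under median scaling those at 12 h and for the drug turned to −0.031 and −0.0078.

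Ikzf1 encodes Ikaros, and Ikzf3 the related Aiolos; both are zinc finger proteins that form complexes with chromatin remodellers in lymphocytes. Ikzf1 read 6774.4, 5631.0 and 5102.8 with drug and 7605.8, 6298.2 and 5968.7 without, in probe set 1436312_at. In each arm the signal was lower at 12 h than at 0 h and lower again at 24 h, and at each time it was lower with drug. After 24 h of TGF-β Ikzf1 fell by 0.38 (log2, standard error 0.09), in 2 of 2 pairs, and limma gave an adjusted p of 0.0297. The fall was 1.3-fold. The 12 h effect of −0.27 ± 0.09 and the SP600125 effect of −0.18 ± 0.08 did not pass. With 1 array left out the 24 h effect stayed between −0.41 and −0.35, with no call kept.

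The other Ikzf1 probe set, 1421303_at, read 852.8, 805.0 and 334.6 with drug and 1559.1, 1126.4 and 962.4 without. Fitted as its own row it fell by 1.02 at 24 h (adjusted p = 0.0267 in limma) and by 0.96 with SP600125 (adjusted p = 0.0264). Its lowest signal was on the array with the actin 3′ to 5′ ratio of 1.89, where it was 2.88-fold lower than at 24 h of TGF-β without drug and the brighter probe set only 1.17-fold lower.

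Ikzf3 read 7227.0, 7483.4 and 7434.5 with drug and 5742.6, 8064.1 and 11082.4 without, in probe set 1436649_at. Without drug the signal was 1.40-fold higher at 12 h and 1.93-fold higher at 24 h, while the 3 signals with drug lay within 1.04-fold of each other. The additive 24 h effect of 0.49 ± 0.18 did not pass (adjusted p = 0.109 in limma), and the interaction of −0.67 ± 0.31 had an adjusted p of 0.999. The probe set 1441088_at was also higher at 24 h without drug, 2171.9 against 1527.7, and had its lowest signal, 958.4, on the 24 h array with both agents. The third Ikzf3 probe set was below the floor on every array.

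Bcl6 encodes the repressor that germinal centre B cells depend on. In probe set 1421818_at it read 5498.5, 4461.8 and 4906.7 with drug after 0, 12 and 24 h of TGF-β, against 5736.3, 6169.3 and 7580.6 without. The 3 signals with drug were all below the 3 without, and the SP600125 effect was −0.39 ± 0.11 (limma adjusted p = 0.0820), and 3 of 3 pairs were lower. The log2 differences with drug were −0.06, −0.47 and −0.63 at 0 h, 12 h and 24 h. The TGF-β effects of −0.10 ± 0.14 and 0.12 ± 0.14 did not pass. The probe set 1450381_a_at read 1219.1, 814.4 and 407.6 with drug and 1171.0, 1165.3 and 956.6 without, with a 24 h effect of −0.94 ± 0.27 (adjusted p = 0.0542 in limma), against a positive sign in the brighter one, which turned to −0.014 under median scaling.

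For Bcl6, Ikzf1 and Ikzf3 alike the dimmer probe set had its lowest signal on the 24 h array with both agents, at 2.35-fold, 2.88-fold and 2.27-fold below the 24 h array without drug, where the brightest probe sets were 1.54-fold, 1.17-fold and 1.49-fold lower. The part of the actin 3′ to 5′ ratio in these values was not tested.

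**Figure D3:**
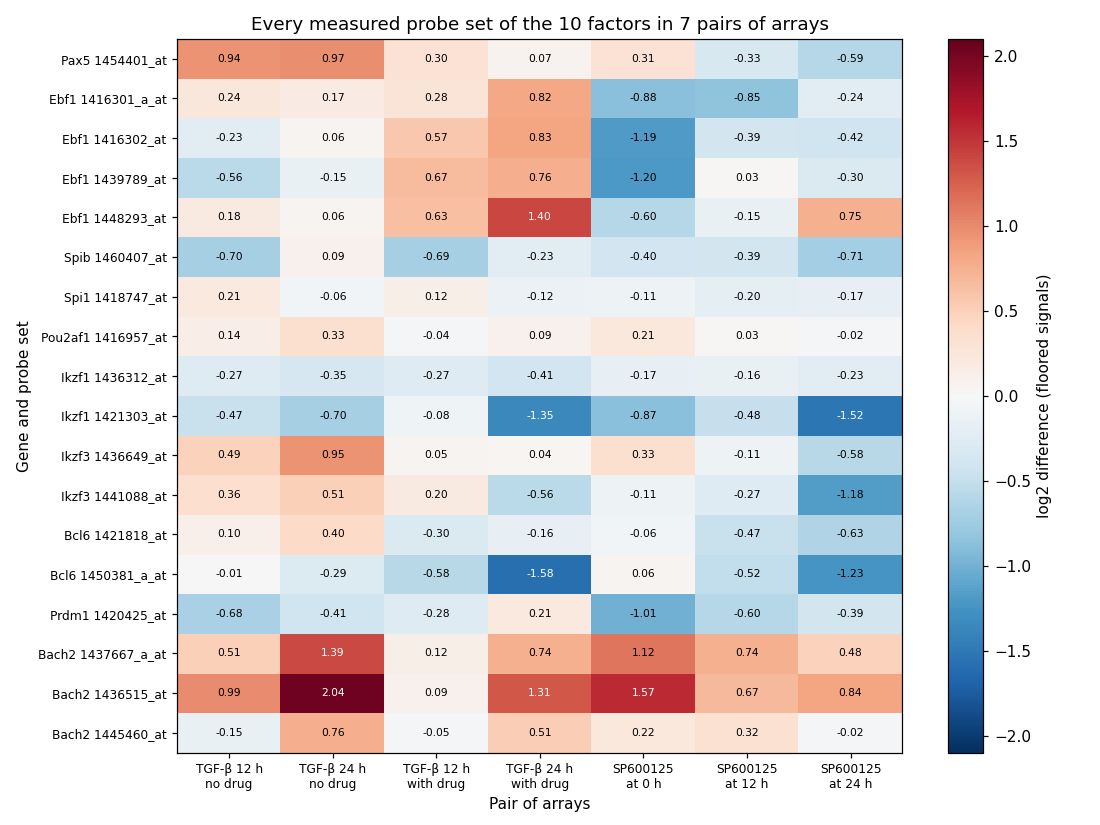
Log2 differences of floored signals for the 18 probe sets of the 10 factors above the floor on at least 1 array, in 7 pairs of arrays; red is higher and blue lower in the array with the added treatment, and a difference against a signal below the floor is a lower bound in size. Bach2 probe sets reach 2.04 at 24 h without drug, and 1 probe set each of Ikzf1 and Bcl6 reaches −1.52 and −1.58 in pairs with the 24 h drug array.

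In single pairs of arrays, which have no test, few factors passed 2-fold by their brightest probe set. The count was 0 of 10 at 12 h of TGF-β and 1 of 10 at 24 h without drug, where 4.87% and 7.62% of all measured genes passed in either direction. It was 0 of 10 at both times in the drug arm, against 3.83% and 6.6% of all genes. For SP600125 it was 2 of 10 in unstimulated cells, Bach2 higher and Prdm1 lower, against 4.6% of all genes, and 0 of 10 at both times of TGF-β, against 3% and 5.13%. At 24 h of TGF-β 9 of the 10 factors were lower with SP600125 than without, all but Bach2, with a median difference of −0.32. At 12 h 8 of the 10 were lower with a median of −0.26, and in unstimulated cells 6 of the 10 with a median of −0.08. The 24 h pair holds the array with the high 18S signal, and the part of array quality in these counts was not tested. Of all measured genes 44.1% were lower at 24 h, 47.2% at 12 h and 44.7% in unstimulated cells, with medians of 0.06, 0.02 and 0.05.

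The TGF-β by SP600125 interaction, which took 12 h and 24 h as repeats of 1 state, called 0 of the 10 factors and 0% of all genes. At an unadjusted p under 0.05 in limma it had 0 of the 10 factors and 315 of the 11731 genes. The 3 pairs with the drug and the TGF-β pairs share arrays, so their values for a gene are not independent.

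By the rule for likeness, the tested genes with the highest Pearson r of log2 signal over the 6 arrays were taken for each factor that passed the test. For Bach2 they were S1pr2 (r = 0.998), Tle6 and Fam151b. S1pr2, a sphingosine 1-phosphate receptor that confines B cells to the germinal centre, read 1899.3, 2077.2 and 2839.7 with drug and 1186.7, 1484.6 and 2174.8 without. For Ikzf1 they were Ccne1, which encodes cyclin E1 (r = 0.995), Orc6 and Lyar. For Spib they were Tcf7l2 (r = 0.987), Myo1e and Nfatc1, and for Ebf1 Lbh (r = 0.989), Ercc1 and Uap1l1. Tcf7l2 was dim, at 92.9, 39.6 and 87.8 with drug and 108.8, 79.6 and 112.7 without. Its lowest signal was below the floor of 74.2 and was replaced by it. Of the 11731 genes tested, 189 had an r over 0.95 with Bach2 and 161 with Ikzf1, against 6 with Spib and 17 with Ebf1. With 6 arrays these values describe the arrays only.

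Genes that the factors act on or with, in lists chosen with earlier results of these data known, are set beside the shares of all genes given above, which were 2.6% risen and 2.37% fallen at 12 h, 9.07% and 7.5% at 24 h, and 3.99% and 3.69% for SP600125. The medians of all genes were 0.02, 0.07 and 0.04. Of 18 B cell surface and signalling genes tested, the 12 h comparison had 2 risen and 1 fallen, the 24 h comparison 4 risen and 0 fallen, and SP600125 0 risen and 5 fallen. Cd83 and Cd40 rose by 2.58 ± 0.26 and 1.72 ± 0.28 at 24 h. Fcrla, an intracellular Fc receptor-like protein of B cells, rose by 1.16 ± 0.18. Blnk, the adaptor below the B cell receptor, was the 1 that fell at 12 h, at −0.73 ± 0.14. With SP600125 Cd22, an inhibitory receptor, was at −1.28 ± 0.14, Vpreb3 at −1.13 ± 0.20, Cr2, the complement receptor CD21, at −0.99 ± 0.15 and Ms4a1, which encodes CD20, at −0.99 ± 0.09. These are 22.2% of the list risen at 24 h and 27.8% fallen with SP600125, and the list medians for 12 h, 24 h and SP600125 were 0.22, 0.34 and −0.32. The summed signal of the 6 B cell markers was 33278.1, 30123.1 and 31123.5 with drug after 0, 12 and 24 h of TGF-β, against 37872.1, 35452.7 and 46846.3 without, and its part in the lower Ebf1 and Spib signals was not tested. Members of that sum differed in direction: Cd79b read 16567.2 and 15552.8 with drug at 0 h and 12 h against 13467.9 and 14271.5 without, and Blnk was higher with drug at all 3 times, for example 6191.7 against 4087.7 at 0 h.

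Of 22 other B lineage transcription factors tested, the 12 h comparison had 1 risen and 0 fallen, the 24 h comparison 3 risen and 0 fallen, and SP600125 0 risen and 3 fallen. The 3 at 24 h were Zbtb20 at 0.86 ± 0.13, Zbtb32 at 0.70 ± 0.13 and Tcf12, an E protein, at 0.46 ± 0.10. The 3 that fell with the drug were Mybl1 at −1.03 ± 0.14, Zbtb32 at −1.01 ± 0.11 and Myb at −0.77 ± 0.14. Zbtb32, a repressor of activated B cells, thus rose with TGF-β and fell with SP600125. The share risen at 24 h was 13.6%, as was the share fallen with SP600125, and the list medians were 0.03, 0.29 and −0.16.

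Of 12 germinal centre genes the 12 h comparison had 1 risen and 1 fallen, the 24 h comparison 6 risen and 1 fallen, and SP600125 2 risen and 2 fallen. Basp1 rose by 2.34 ± 0.16, Il21r, the interleukin 21 receptor chain, by 1.17 ± 0.18, the death receptor gene Fas by 1.13 ± 0.24 and Rgs13 by 0.82 ± 0.14 at 24 h. Fancd2, a DNA repair gene, fell by 0.97 at 24 h. Neil1, a DNA glycosylase gene, fell by 1.02 at 12 h. With SP600125 Neil1 rose by 1.03 ± 0.14 and S1pr2 by 0.52 ± 0.10, while Basp1 and Mybl1 were at −1.24 ± 0.13 and −1.03 ± 0.14. The share risen at 24 h was 50% of these 12 genes, and the list medians were 0.25, 0.36 and 0.01.

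Of 22 plasma cell genes the 12 h comparison had 2 risen and 1 fallen, the 24 h comparison 5 risen and 0 fallen, and SP600125 4 risen and 4 fallen. At 24 h Trp53inp1 rose by 1.84 ± 0.30, the integrin gene Itga4 by 1.27 ± 0.24, Tnfrsf13b, which encodes TACI, by 0.89 ± 0.10 and the elongation factor gene Ell2 by 0.78 ± 0.16. The share risen at 24 h was 22.7%, while the list median there was 0.05, close to that of all genes. With SP600125 Derl3, of endoplasmic reticulum degradation, was at −1.07 ± 0.20, Edem1 at −0.76 ± 0.11, Jchain, the antibody joining chain, at −0.44 ± 0.09 and Xbp1, the secretory regulator, at −0.42 ± 0.08. In the same comparison Trp53inp1 rose by 1.35 ± 0.24, the amino acid transporter chain Slc3a2 by 0.84 ± 0.07, Atf6 by 0.69 ± 0.13 and Herpud1 by 0.47 ± 0.08. The shares risen and fallen with the drug were 18.2% each, and the list median was −0.18. At 12 h of TGF-β Herpud1 fell by 0.56.

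Of 11 genes that Pax5 is known to repress, the 12 h comparison had 0 risen and 0 fallen, the 24 h comparison 1 risen and 1 fallen, and SP600125 1 risen and 2 fallen. They were Notch1, a receptor of T cell fate, at 0.89 ± 0.24, and Emb at −0.64 ± 0.14 for TGF-β, and Cd274, which encodes PD-L1, at 0.95 ± 0.13 with Jchain and Xbp1 as above for the drug. At 24 h the shares of 9.09% risen and 9.09% fallen were near those of all genes. Of 22 corepressors and cofactors the 12 h comparison had 2 risen and 0 fallen, the 24 h comparison 6 risen and 0 fallen, and SP600125 0 risen and 1 fallen. Bcor, a corepressor that binds Bcl6, rose by 0.85 ± 0.13 at 12 h and 1.25 ± 0.13 at 24 h. Tle3, a Groucho corepressor, rose by 1.43 ± 0.33, Crbn by 0.55 ± 0.13 and Mafk, a small Maf partner of Bach proteins, by 0.53 ± 0.14 at 24 h. Hdac1, a histone deacetylase, rose by 0.56 ± 0.10 at 12 h and was at −0.40 ± 0.08 with SP600125. The share of this list of corepressors and cofactors risen at 24 h was 27.3%, and the 4.55% fallen with SP600125 was near the share of all genes.

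**Figure D4:**
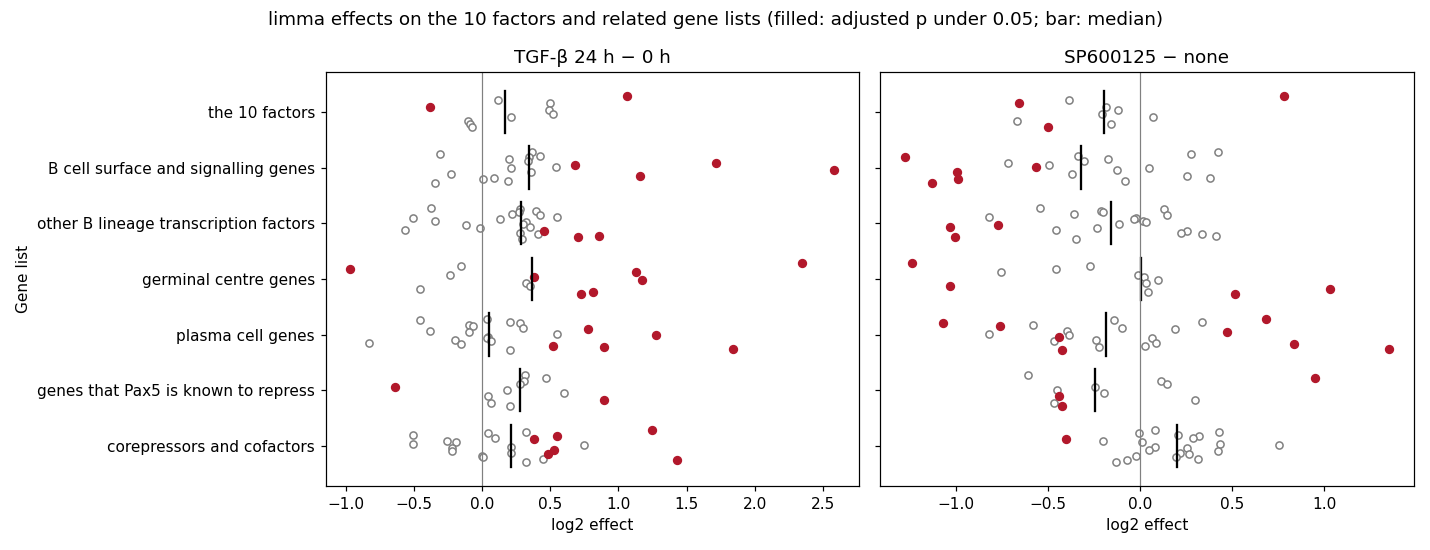
Log2 effects of TGF-β at 24 h and of SP600125 from the additive limma model for the 10 factors and 6 lists of related genes, 1 point per gene tested, filled where the adjusted p was under 0.05, with a bar at each median. Every list but the plasma cell genes had a median over 0.1 at 24 h, and the B cell surface list had 0 genes risen and 5 fallen with SP600125.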

How the data were processed

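The authors deposited 1 linear intensity (signal) per probe set and array, from GCOS 1.2 software (per the submitters' processing notes); the sources used here do not give its settings. Equal 2% trimmed means of 500.0 on all 6 arrays are the mark of global scaling. Array medians were 69.3 to 80.9. Of 45101 probe sets, 34958 had 1 symbol, 932 several and 9211 none in the platform annotation, and 34754 of the first were found in the RefSeq gene table by identifier.

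Signals were floored at the 50th percentile, taken to log2 and fitted per gene (brightest mean signal) with limma 3.58.1 in R 4.3.3, with lmFit and eBayes with an intensity trend. The additive model had 2 residual degrees of freedom and a prior of 5.97; the interaction model had 2 and 2.79. The code was tested on simulated data. A Benjamini-Hochberg adjusted p under 0.05 over all genes was a call. Pairs of arrays have no test. The alternatives were median scaling, quantile normalization, the mean of all probe sets, a floor at the 25th percentile, no filter, no trend, each array left out, and, added after seeing the data, each probe set as its own row.

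The 10 factors and the gene lists were chosen with earlier results of these data known. Named were all 10 factors, up to 4 genes called per list, comparison and direction by size, and the 3 most like each called factor. Genes of the lists with no probe set of 1 symbol here were not analysed.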

Additional observations from a re-analysis of the deposited data

How the results depend on the processing

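No paired analysis was possible because each condition has 1 array and the labels give no replicate numbers that pair samples. Outside the fits with an array left out, 326 effects of single factors kept their direction and their side of the threshold, 18 lost the call and 6 turned sign, none of them called. Most of the 326 had no call to lose. Over the 7 other settings the call was lost in 2 for Bach2 at 24 h, in 4 for Ebf1 and in 3 for each other call. Those that turned were Pou2af1 at 12 h (−0.031), Bcl6 at 24 h (−0.014) and Pou2af1 for SP600125 (−0.0078) under median scaling, and Bcl6 at 24 h (−0.41), Ikzf3 for 24 h against 12 h (−0.026) and Bcl6 for 24 h against 12 h (−0.21) under the mean of all probe sets.

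With the mean of all probe sets, with no filter and with no intensity trend, 0 factors fell at 12 h in place of 1, 0 fell at 24 h in place of 1, and for SP600125 0 rose in place of 1 and 0 fell in place of 2. At 24 h averaging all probe sets kept 1 risen, against 0 with no filter and 0 with no trend. With each probe set as its own row, 1 factor, Spib, fell with SP600125 by its brightest probe set, and 1421303_at of Ikzf1, which is not the brightest, also fell. By the mean of all probe sets 1 factor was 2-fold changed by SP600125 in unstimulated cells in place of 2. Over all genes, the calls at 12 h were 60 risen and 26 fallen with the mean of all probe sets, 22 and 0 with no trend and 1 and 1 with no filter, in place of 305 and 278. At 24 h they were 526 risen and 438 fallen with the mean of all probe sets, 385 and 177 with no trend and 2 and 1 with no filter, in place of 1064 and 880, and for SP600125 110 and 65, 70 and 22, and 0 and 0, in place of 468 and 433. Without the filter the prior fell to 0.62 degrees of freedom and the interaction called 181 risen and 225 fallen genes.

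Leaving out 1 array leaves 1 residual degree of freedom, and 0 factors fell at 12 h, 0 fell at 24 h, and 0 rose and 0 fell for SP600125 whichever array was left out, while 0 to 1 rose at 24 h, the 1 being Bach2 without the drug-alone array. Of the effects, 191 kept their direction and side, 35 lost the call and 14, none of them called, turned sign. Apart from Bach2 at 24 h without the drug-alone array, the 191 were effects with no call to lose. The ranges of those that turned were −0.058 to 0.15 for Pou2af1, −0.067 to 0.61 for Ikzf3 and −0.34 to 0.15 for Bcl6 at 12 h. They were −0.12 to 0.36 for Bcl6, −0.36 to 0.16 for Prdm1 and −0.23 to 0.089 for Spib at 24 h. For 24 h against 12 h they were −0.12 to 0.57 for Ikzf3, −0.39 to 0.19 for Pax5 and −0.078 to 0.55 for Ebf1, and for SP600125 −0.34 to 0.11 for Ikzf3. Over all genes limma called 0 in the 12 h, 24 h and SP600125 comparisons when the 24 h array with both agents was left out, where 2332, 2645 and 1884 genes had an unadjusted p under 0.05, and 0 when the 24 h array with TGF-β alone was left out. With 1 array per condition the error of every effect is the departure from additivity, and signals near the floor, as for Prdm1 and Pax5, limit precision further.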
